A study of Homo sapiens with 12 samples.

Results

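The mature miRNAs of the human miR-7 genes were followed through the epithelial-to-mesenchymal transition (EMT) of A549 cells under TGF-β. They are the guide strand hsa-miR-7-5p and the strands from the other arm of the hairpin, hsa-miR-7-1-3p and hsa-miR-7-2-3p, which make 3 of the 2588 mature miRNAs in the count table. The group was chosen by name, after miR-7-5p had been selected on its fall at 24 h in an earlier analysis of the same libraries. Its change from 0 h to 24 h is therefore given below as a description, without a test. Its changes to 96 h from 0 h and from 24 h each share libraries with that contrast and are given in the same way. Small RNA was sequenced from A549 cells, a human lung adenocarcinoma line with an epithelial morphology, after 0, 24, and 96 h with TGF-β, the cytokine used to bring about EMT. Cells of every group had been kept without serum before TGF-β was added. The cells sampled at 0 h were the only untreated ones, so time in culture and TGF-β cannot be told apart. Each of the 3 time points has 2 libraries, and the counts of each of the 6 libraries are the sum of 2 sequencing runs. The labels do not say that the libraries came from separate cultures, so the tests measure the spread between libraries, which may be technical.

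A miRNA hairpin is cut into a duplex of which the guide strand is loaded into Argonaute, while the other strand is usually degraded. The bases of the guide near its 5′ end, the seed, pair with target mRNAs. miR-7 is an ancient miRNA that is enriched in neurons and endocrine cells, and among its known targets is the mRNA of EGFR, a growth factor receptor that drives many lung adenocarcinomas. It is under unusual control after its processing: the long noncoding RNA CYRANO triggers degradation of miR-7, and the circular RNA CDR1-AS holds many binding sites for it.

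The mature sequences are shown because the guide is shared by several genes while the other strands are not. They are given 5′ to 3′ as RefSeq lists them with build GRCh38.p14, with the seed, bases 2 to 8, in capitals.
hsa-miR-7-5p: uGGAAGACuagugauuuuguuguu
hsa-miR-7-1-3p: cAACAAAUcacagucugccaua
hsa-miR-7-2-3p: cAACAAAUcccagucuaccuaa
The guide has 24 bases, and none of the other mature human miRNAs in that table, which holds 2370 names, had its seed. The other strands have 22 bases each and shared their seed only with each other. Counted from 1 at the 5′ end and read from miR-7-1-3p to miR-7-2-3p, they differ by A10C, G17A, A20U, and U21A, so that 18 of 22 bases are the same and reads of either can be told apart. Where a base is written as U, the sequenced cDNA has T.

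The guide is made from 3 genes of 110 bases each. On GRCh37, with GENCODE annotation, MIR7-1 lies at chr9:86584663-86584772 on the minus strand, inside the protein-coding gene HNRNPK, which encodes an RNA-binding protein and is transcribed in the same direction. It is in an intron of 27 of the 28 HNRNPK transcripts that span it and overlaps an exon of the other 1. MIR7-2 lies at chr15:89155056-89155165 on the plus strand and overlaps no other annotated gene. MIR7-3 lies at chr19:4770682-4770791 on the plus strand, in an intron of all 56 spanning transcripts of its noncoding host gene MIR7-3HG. The RefSeq hairpins of MIR7-2 and MIR7-3 show the layout, with the stretches that match the mature sequences above in capitals. The RefSeq sequences used here list the guide under MIR7-1 and MIR7-3, so its place in MIR7-2 was found by matching its sequence. They hold no hairpin for MIR7-1.
MIR7-2: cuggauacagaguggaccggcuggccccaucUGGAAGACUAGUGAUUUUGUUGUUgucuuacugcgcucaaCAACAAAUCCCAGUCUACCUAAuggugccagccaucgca
MIR7-3: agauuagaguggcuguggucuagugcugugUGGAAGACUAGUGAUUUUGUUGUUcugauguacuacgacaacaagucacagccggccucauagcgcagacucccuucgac
In MIR7-2 the guide takes bases 32 to 55 of the hairpin and miR-7-2-3p bases 72 to 93, with 16 bases of loop and stem between them. In MIR7-3 the guide takes bases 31 to 54. The genomic positions of these hairpins on GRCh38.p14 are chr15:88611825-88611934 and chr19:4770670-4770779.

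The libraries held between 2335185 and 5971197 reads on mature miRNAs, so that 3 reads, the limit that a count of 0 allows, correspond to between 0.502 and 1.28 CPM, the count scaled per 1000000 reads of the total. edgeR's filter on low counts left 491 miRNAs, which were tested after TMM normalization, a scaling that assumes most miRNAs unchanged. Calls required a Benjamini-Hochberg adjusted p under 0.05 together with a log2 fold change beyond 1 in either direction. Of the 3 members, miR-7-5p and miR-7-1-3p passed the filter. Scaling by total counts instead of TMM moved the median log2 fold change over the tested miRNAs from −0.00 to −0.30 for 24 h against 0 h, from −0.10 to −0.83 for 96 h against 0 h, and from −0.05 to −0.49 for 96 h against 24 h.

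miR-7-5p was abundant before treatment and lower at both later times. Its counts were 6937 and 8045 at 0 h, 2320 and 2813 after 24 h, and 5860 and 4180 at 96 h. As shares of the library total these were 2971 and 3275 CPM at 0 h, 911 and 875 CPM after 24 h, and 981 and 897 CPM at 96 h. Each library at 0 h was above each later library, and the libraries of 24 h and 96 h overlapped on this scale. The lowest of the 95% Wilson intervals at 0 h began at 2902 CPM and the highest later interval ended at 1007 CPM. These intervals, like the limits for a count of 0, cover counting error only. The mean share was 0.312% ± 0.0215 at 0 h, 0.0893% ± 0.00256 after 24 h, and 0.0939% ± 0.00595 at 96 h (SD, n = 2 libraries). Across pairs of libraries the 0 h level was 3.26 to 3.74 times that at 24 h and 3.03 to 3.65 times that at 96 h. By count within a library, miR-7-5p ranked 35 and 34 among the mature miRNAs at 0 h, 59 and 57 after 24 h, and 50 and 55 at 96 h. The fall in rank does not depend on how libraries are scaled to each other.

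**Figure D1:**
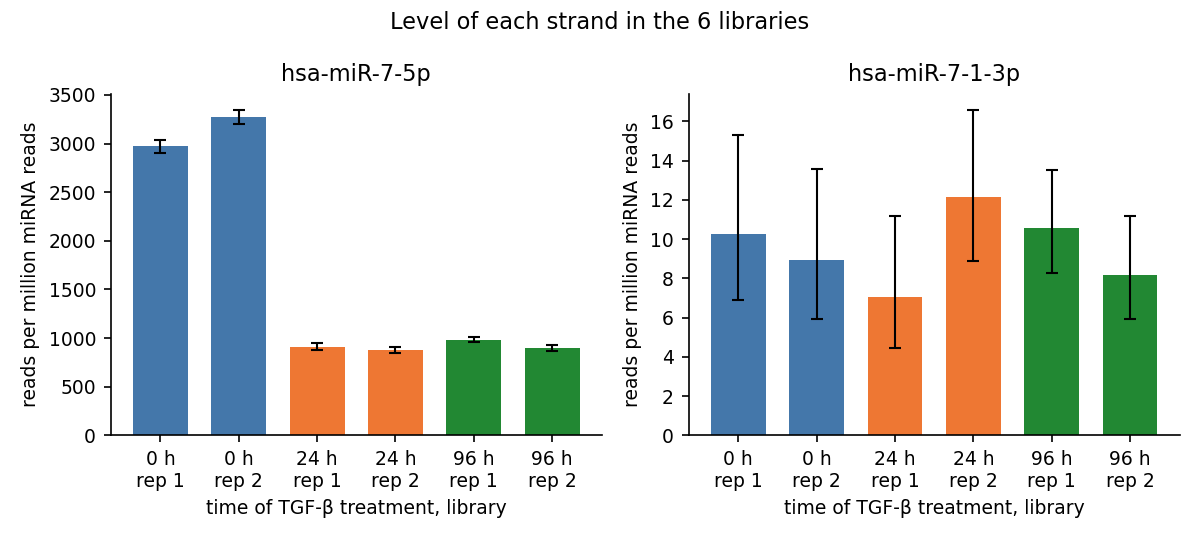
CPM of the library total (linear axes from 0) of miR-7-5p on the left and miR-7-1-3p on the right in each of the 6 libraries, 2 per time of TGF-β treatment; bars are the values and error bars the 95% Wilson intervals. miR-7-5p stands at 2971 and 3275 at 0 h and between 875 and 981 later, while miR-7-1-3p stays between 7.07 and 12.1 with overlapping intervals.

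The size of the later fall depended on the scaling, and its presence did not. TMM-normalized levels of miR-7-5p were 2541 and 2401 CPM at 0 h, 863 and 861 CPM after 24 h, and 1330 and 1134 CPM at 96 h. The means were 2471 ± 99.4, 862 ± 2.06, and 1232 ± 139 CPM (SD, n = 2 libraries). No library of 1 time point overlapped with those of another on this scale. The log2 fold change for 24 h against 0 h was −1.52 (standard error 0.14), the seventh lowest of the 491 tested, in a comparison that called 3.46% of them in either direction and 2.24% lower. This is the contrast on which the miRNA had been selected. Against the same 0 h libraries, the value of 96 h was −1.004 (standard error 0.14). It is a description as well, since it shares the 0 h libraries with the contrast used for selection. The same comparison called 25.9% of the tested miRNAs, 13.2% lower, and miR-7-1-3p was not called. The value of miR-7-5p at 96 h lies at the minimum change and did not pass it under 8 of 17 alternatives, all of which left it between −0.97 and −0.85. These included leaving out 0 h replicate 1, either 24 h library, or 96 h replicate 2.

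From 24 h to 96 h the TMM-normalized level of miR-7-5p was higher by 0.52 on the log2 scale (standard error 0.14), short of the minimum change. A low value at 24 h was part of what the miRNA was selected on. With total counts the difference was 0.07, as the overlapping shares show. Against the median of all tested miRNAs, the change was −1.52 with TMM and −1.51 with total counts for 24 h against 0 h. The corresponding values were −0.90 with either scaling for 96 h against 0 h, and 0.57 and 0.56 for 96 h against 24 h. None of the 2 tested members was called between 24 h and 96 h by edgeR or by DESeq2, where edgeR called 5.91% of the tested miRNAs and 2.24% lower. No p is given for miR-7-5p here, because the 24 h libraries were part of the selection.

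**Figure D2:**
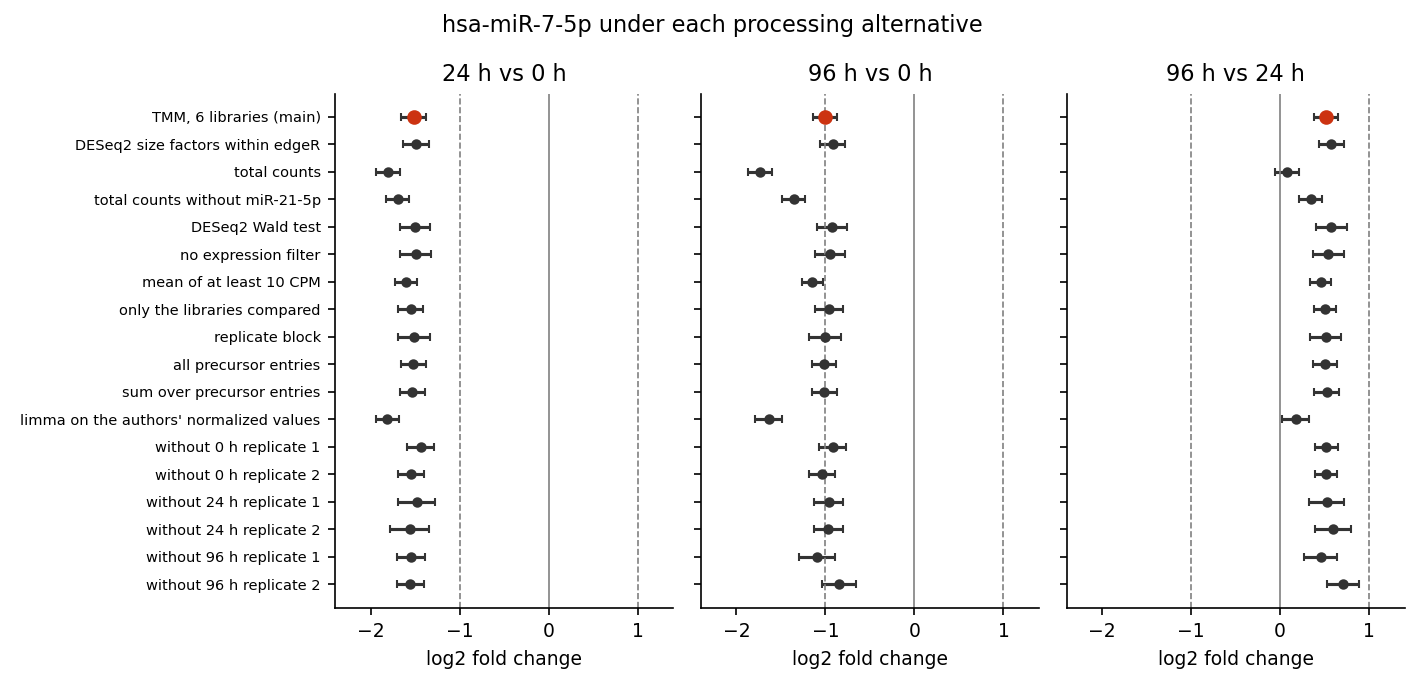
Log2 fold change of miR-7-5p (horizontal axis, error bars are standard errors) in the 3 comparisons of time points under the main fit, in red, and 17 alternatives; dashed lines mark the minimum change of 1 in either direction. The change for 24 h against 0 h lies between −1.81 and −1.44, that for 96 h against 0 h between −1.73 and −0.85 on both sides of the line, and that for 96 h against 24 h between 0.07 and 0.71.

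The lower level was present in every sequencing run that could be separated. The authors' normalized values add both runs of a library after scaling, so the reads of each run could be solved for the 5 libraries that have such values. At 0 h the runs gave 2651 and 2912 reads of miR-7-5p as CPM of the run in replicate 1, and 3001 and 2938 in replicate 2. At 24 h they gave 830 and 834 in replicate 1, and 822 and 785 in replicate 2. Both runs of 96 h replicate 1 gave 909 and 935. The first value of each pair is that of the deeper run, and the total here is over all entries of the table. The lowest run at 0 h was 3.18 times the highest at 24 h and 2.83 times the highest at 96 h. Runs of the same library differed by 0.0066 to 0.135 on the log2 scale, and the shallower run was the higher in 3 of 5 libraries.

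**Figure D3:**
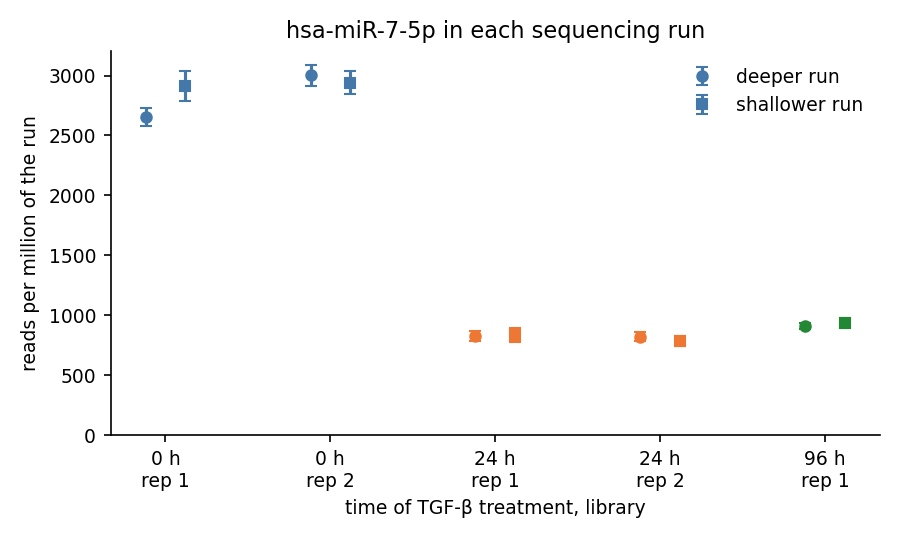
CPM of miR-7-5p within the run (linear axis from 0) in the deeper run (circles) and the shallower run (squares) of 5 libraries, with 95% Wilson intervals. The 4 runs at 0 h lie between 2651 and 3001, the 4 at 24 h between 785 and 834, and the 2 at 96 h at 909 and 935.

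The counts could not be divided among the 3 genes. miR-7-5p is listed 3 times in the table, with totals of 30155, 29828, and 29826 reads, since the same reads were assigned to each hairpin. The entry with the most reads exceeded the others by 24 to 103 reads in a library, which is 0.717% to 1.92% of its count. Those few extra reads were 29.1 and 41.9 CPM at 0 h, 9.43 and 15.2 CPM after 24 h, and 7.37 and 8.37 CPM at 96 h, counted against the second entry. They were thus also highest in both 0 h libraries, and the table does not name the hairpin they fit. The log2 fold changes of the 3 entries, fitted side by side, were within 0.01 of each other for 24 h against 0 h, at −1.52 to −1.53.

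miR-7-1-3p, the strand opposite the guide in MIR7-1, was rare, and its shares at the 3 time points overlapped. Its counts were 24 and 22 at 0 h, 18 and 39 after 24 h, and 63 and 38 at 96 h. As shares of the total these were 10.3 and 8.96 CPM at 0 h, 7.07 and 12.1 CPM after 24 h, and 10.6 and 8.16 CPM at 96 h. Their means were 9.62 ± 0.934, 9.60 ± 3.58, and 9.35 ± 1.69 CPM (SD, n = 2 libraries). Its TMM-normalized levels were 8.79 and 6.56 CPM at 0 h, 6.70 and 11.9 CPM after 24 h, and 14.3 and 10.3 CPM at 96 h. On that scale both libraries of 96 h were above those of 0 h. The log2 fold change for 96 h against 0 h was 0.70 with TMM (standard error 0.38; edgeR adjusted p = 0.156) and −0.03 with total counts, so its sign followed the scaling. Against the median of all tested miRNAs it was 0.79 with TMM and 0.80 with total counts. Its change for 24 h against 0 h was 0.31 (standard error 0.40; edgeR adjusted p = 0.629), 0.02 with total counts, and −0.23 without 24 h replicate 2. Between 24 h and 96 h it was 0.39 (standard error 0.37; edgeR adjusted p = 0.492) and −0.05 with total counts, and it ran from 0.05 without 24 h replicate 1 to 0.96 without 24 h replicate 2. Its 46 to 101 reads per time point limit the precision of these values.

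miR-7-2-3p, the strand opposite the guide in MIR7-2, had 0 reads in each of the 6 libraries. A count of 0 allows up to 1.28 CPM in the smallest library and 0.502 CPM in the largest, below the lowest value of miR-7-1-3p, 7.07 CPM. No test and no ratio could be made for it. Since a strand opposite the guide can be lost after processing, this does not show whether MIR7-2 was transcribed.

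The ratio of the guide to the strand opposite it is free of the scaling between libraries. There were 289 and 366 reads of miR-7-5p for each read of miR-7-1-3p at 0 h. The ratios were 129 and 72.1 after 24 h, and 93.0 and 110 at 96 h. All later ratios were below those of 0 h, and the libraries of 24 h and 96 h overlapped. The lowest 95% interval at 0 h ran from 194 to 430 and the highest later interval, that of 24 h replicate 1, from 81.4 to 204, so these libraries overlapped within counting error. The mean ratio was 327 ± 54.2 at 0 h, 101 ± 40.1 after 24 h, and 102 ± 12.01 at 96 h (SD, n = 2 libraries), or 3.26 and 3.22 times lower than at 0 h. The numerator holds reads from all 3 genes and the denominator only those of MIR7-1.

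The same ratio was fitted with limma for the 129 strand pairs of which both strands passed the expression filter. The miR-7 ratio changed by −1.75 on the log2 scale for 24 h against 0 h (standard error 0.36), the second lowest value among the pairs, given as a description because it holds the contrast used for selection. For 96 h against 0 h the change was −1.67 (standard error 0.36), the seventh lowest. It was not called, and it is a description as well, since it shares the 0 h libraries with the contrast used for selection. limma called 0% of the 129 pairs there, with or without a trend in the variance, and 24 pairs had an unadjusted p under 0.05. The median absolute change of the pairs was 0.31 for 24 h against 0 h and 0.55 for 96 h against 0 h. Between 24 h and 96 h the miR-7 ratio changed by 0.08 (standard error 0.36), and without 24 h replicate 2 by −0.33. These values are descriptions too, as the 24 h libraries were part of the selection.

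**Figure D4:**
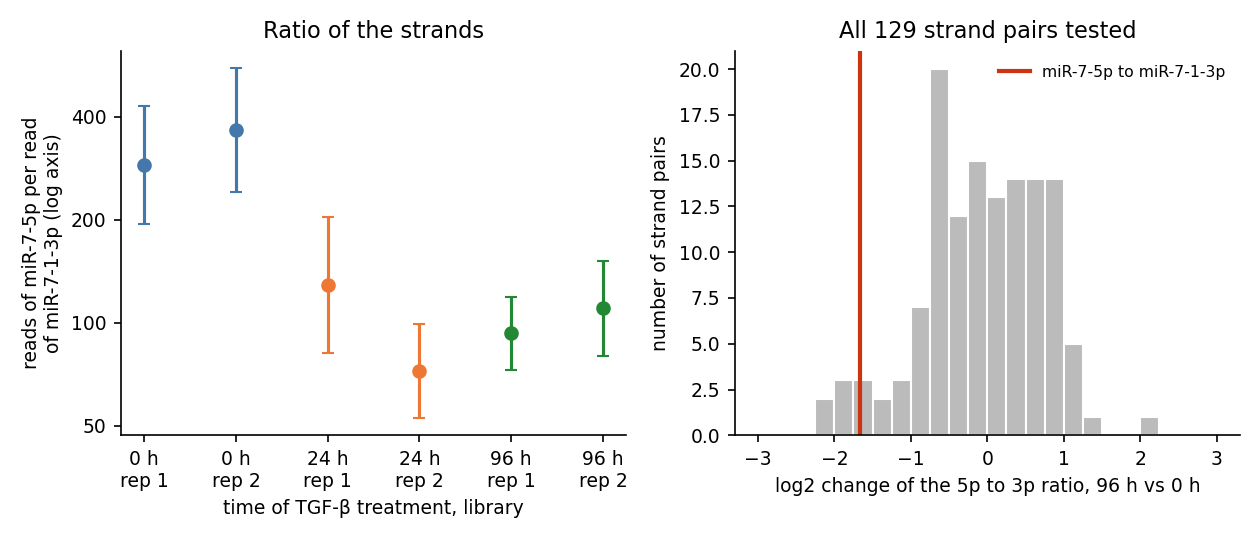
Left, reads of miR-7-5p per read of miR-7-1-3p (log axis) in each library with 95% intervals from counting; right, number of strand pairs (vertical axis) by the log2 change of their 5p to 3p ratio at 96 h against 0 h, with miR-7 as the red line. The ratio is 289 and 366 at 0 h and 72.1 to 129 later, and the miR-7 change of −1.67 lies in the lower tail of the 129 pairs.

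Further miRNAs were read beside miR-7 as lists. The first holds miRNAs that, like miR-7, have a known RNA that triggers their degradation. All 5 were tested, and 0 were called by edgeR for either 24 h or 96 h against 0 h, beside 3.46% and 25.9% of all tested miRNAs. DESeq2 also called 0. By edgeR, 2 of the 5 at 24 h and 4 at 96 h had an adjusted p under 0.05 but missed the minimum change. The same numbers had an unadjusted p under 0.05. Over all 491 tested miRNAs, 35 at 24 h and 216 at 96 h had an adjusted p under 0.05. With total counts, 3 of them were called lower at 96 h: miR-221-3p, miR-222-3p, and miR-29b-3p. That scaling called 192 of all 491 tested miRNAs lower at 96 h. With TMM, the median log2 fold changes of the 5 were 0.11 and −0.68, beside −0.00 and −0.10 over all tested miRNAs. miR-221-3p, a regulator of the cell cycle inhibitor p27, had counts of 7088 and 9226 at 0 h, 5366 and 5580 after 24 h, and 6047 and 4893 at 96 h. Its log2 fold changes were −0.53 and −0.99 against 0 h. miR-222-3p, from the same cluster, had −0.61 and −0.68. miR-29b-3p, which targets collagen mRNAs, had 0.30 at 24 h and −0.99 at 96 h against 0 h. Against 24 h it was called lower at 96 h (−1.29, edgeR adjusted p = 0.0245), beside 5.91% of all tested miRNAs called, 2.24% lower. Its 0 h libraries differed widely, with counts of 11595 and 27434. miR-30b-5p had 0.13 and 0.48, and miR-30c-5p had 0.11 and 0.15.

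miR-671-5p directs the cleavage of CDR1-AS, the circular RNA that binds miR-7. Its counts were 75 and 127 at 0 h, 45 and 48 after 24 h, and 82 and 77 at 96 h. It was called lower at 24 h (log2 fold change −1.06, standard error 0.25, edgeR adjusted p = 0.033). That comparison called 3.46% of all tested miRNAs, 2.24% lower. At 96 h the change was −0.73 (standard error 0.24; edgeR adjusted p = 0.0311), below the minimum change. The strand opposite it, miR-671-3p, had changes of −0.18 and −0.03 and was called at neither time. With total counts, miR-671-5p was also called lower at 96 h, as were 192 of all 491 tested miRNAs.

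Of 9 listed names of miRNAs with neural or endocrine expression, like that of miR-7, 8 were in the count table and 6 were tested. Of these, 1 was called at each time, beside 3.46% of all tested miRNAs at 24 h and 25.9% at 96 h. It was miR-129-5p, called higher at 24 h (1.57) and at 96 h (1.51), with counts of 24 and 31 at 0 h, 65 and 96 after 24 h, and 115 and 94 at 96 h. None was called lower, and the median changes were −0.12 at 24 h and −0.01 at 96 h. With total counts the call of miR-129-5p at 96 h was lost and miR-9-3p was called lower, as were 192 of all 491 tested miRNAs. miR-375, an islet miRNA, had −0.14 and −0.19, miR-9-5p −0.10 and 0.07, miR-9-3p −0.31 and −0.80, and miR-218-5p 0.07 and 0.36. Of 6 other miRNAs reported to target EGFR, 4 were tested and 1, miR-145-5p, was called higher at 96 h, against both 0 h (25.9% of all tested called) and 24 h (5.91%). Its counts were 1 and 0 at 0 h, 3 and 4 after 24 h, and 29 and 25 at 96 h. It thus passed the expression filter only through the 96 h libraries, where it is high, so its call adds no separate support. miR-27a-3p had 0.05 and 0.49, miR-128-3p −0.36 and −0.10, and miR-146a-5p −0.02 and 0.55 against 0 h. The list's median changes were 0.02 and 0.52, and −0.27 and −0.21 with total counts, so their sign followed the scaling.

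Other mature miRNAs that, like miR-7-5p, come from several hairpins with distinct opposite strands gave a further comparison. There were 23, of which 19 were tested. At 24 h, 1 was called higher and 0 lower, beside 3.46% of all tested miRNAs called, 2.24% lower, and their changes ran from −0.75 to 1.57 with a median of 0.13. At 96 h, 1 was called higher and 1, miR-138-5p, lower (−1.78), with a median of 0.36, beside 25.9% of all tested miRNAs called, 13.2% lower. With total counts, 1 was called higher and 1 lower after 24 h, beside 5 higher and 28 lower of all 491 tested. At 96 h, 0 were called higher and 4 lower with total counts, beside 23 higher and 192 lower of all 491. The −1.52 of miR-7-5p at 24 h thus lay below the range of these 19, in the contrast on which it had been selected.

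The miRNAs with the most similar course were found among the 321 tested miRNAs that averaged 10 CPM or more. Likeness was the root mean square difference of log2 CPM over the 6 libraries, after each miRNA was centred on its own mean. The median difference from miR-7-5p was 0.74. The nearest were miR-345-5p with 0.25, miR-584-5p with 0.26, miR-671-5p with 0.29, miR-589-5p with 0.32, and miR-339-5p with 0.37. miR-345-5p had counts of 355 and 433 at 0 h, 165 and 236 after 24 h, and 350 and 234 at 96 h. Its log2 fold changes were −0.95 and −0.86 against 0 h, a smaller fall at 24 h than that of miR-7-5p. miR-584-5p had counts of 47 and 54, 19 and 25, and 31 and 24, with changes of −1.17 and −1.29. miR-589-5p had changes of −0.91 and −1.03, and miR-339-5p had −0.66 and −0.71. The difference between miR-7-5p and its own opposite strand, miR-7-1-3p, was 0.84, more than the median. miR-7-1-3p averaged below 10 CPM and was not among the 321, and its few reads add counting error to that difference.

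**Figure D5:**
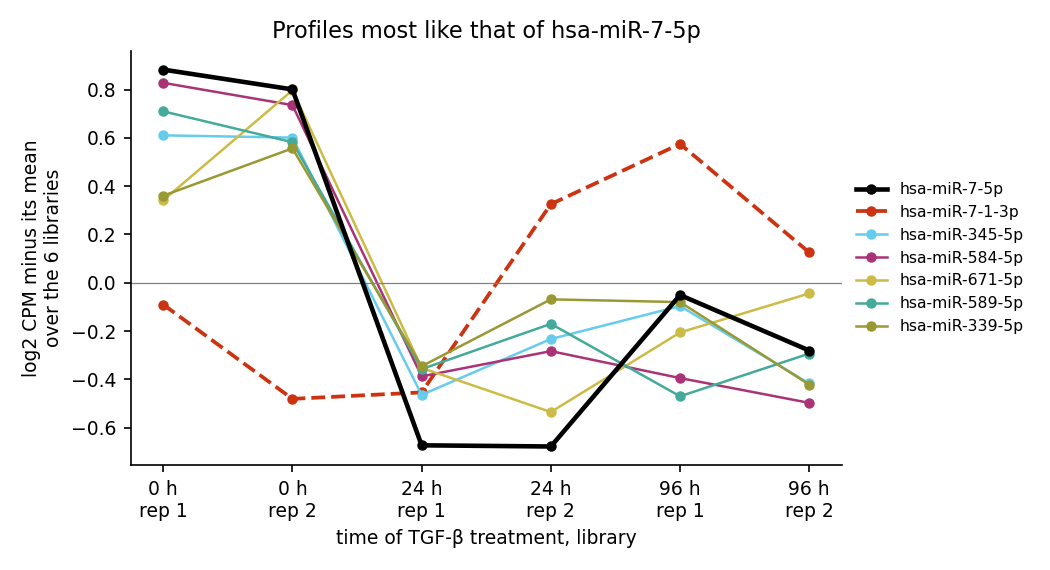
Log2 CPM (TMM) minus its mean over the 6 libraries (vertical axis) for miR-7-5p in black, the 5 miRNAs with the nearest course, and miR-7-1-3p, dashed in red. The 5 nearest were chosen for likeness over these libraries, so by that choice they are above their mean at 0 h and below it later, as is miR-7-5p. miR-7-1-3p, whose TMM-scaled sign at 96 h turns with total counts, runs below its mean at 0 h.

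Markers of cell identity were read in the same libraries. In such bulk samples, fewer cells of a type and less RNA per cell cannot be told apart. All 6 epithelial miRNAs, the miR-200 family and miR-205-5p, had reads, with a summed level of 139 to 163 CPM at 0 h, 161 to 184 CPM after 24 h, and 179 to 186 CPM at 96 h. Of these, miR-205-5p had at most 3 reads in a library, 0 in both 96 h libraries, and was not tested. For 96 h against 0 h, miR-200b-3p changed by 1.60, miR-200a-3p by 0.81, and miR-429 by 0.20. By contrast, miR-200c-3p changed by −0.03 and miR-141-3p, with at most 13 reads in a library, by −1.14. The median of the 5 tested was 0.20 with TMM and −0.53 with total counts, so its sign followed the scaling. Of 5 fibroblast miRNAs 4 had reads, and their sum went from 7.33 to 10.3 CPM at 0 h to 106 CPM in both libraries at 24 h and 309 to 358 CPM at 96 h. Most of it was miR-143-3p; miR-145-5p, also in the EGFR list, had at most 29 reads, while miR-214-3p had 0 reads and miR-199a-3p 1 to 12 reads. Of 6 blood miRNAs 4 had reads, summing to 6.42 to 6.51 CPM at 0 h and 0.837 to 1.07 CPM at 96 h, with miR-223-3p and miR-150-5p at 0. The neural and endocrine markers, for which miR-7 is also known, summed to 348 to 412 CPM at 0 h, 289 to 322 CPM after 24 h, and 255 to 261 CPM at 96 h, and miR-124-3p had 1 read in all. These sums are shares of the total, and the direction of the neural and endocrine markers turned with the scaling: the median log2 fold change of the 3 that were tested was −0.10 at 24 h and 0.07 at 96 h with TMM, and −0.38 and −0.65 with total counts. The part of these shifts in the fall of miR-7-5p was not tested.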

How the data were processed

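Small RNA libraries of A549 cells were prepared from Trizol-extracted RNA with Illumina's kit for small RNA and sequenced on an Illumina instrument. The authors assigned reads to known miRNAs with miRDeep2 and deposited raw counts, whole reads per mature miRNA and hairpin, with both runs of a library already summed. The miRNA release is not given in the sources used here, and the submitters' processing notes name hg19 and FastQC. The deposited normalized table is a signal, the sum of the CPM values of both runs; 1 column repeated another and was not used, so 96 h replicate 2 has no normalized value. In the other 5 libraries 99.9% to 100.0% of entries above 0 came out as whole reads of the runs within 0.15 of a read.

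For each mature miRNA the entry with the highest total was used. edgeR 4.0.16 in R 4.3.3 was used for the counts: TMM, filterByExpr with a minimum count of 10, a quasi-likelihood fit over all 6 libraries with time as the single factor, and Benjamini-Hochberg adjustment over the 491 tested miRNAs. limma 3.58.1 was fitted to log2 strand ratios with 0.5 added to each count. Scripts were tested on simulated data. The smallest p of an exact permutation test (two-sided) between 2 and 2 libraries is 0.333. Depth ranged from 2335185 to 5971197 reads per library, and intervals at the 95% level leave out PCR duplication, which cannot be seen without molecular identifiers.

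The alternatives were DESeq2's size factors, total counts with and without miR-21-5p, DESeq2 1.42.0, a filter at a mean of at least 10 CPM or none, only the libraries compared, a replicate block, all hairpin entries or their sum, limma on log2(normalized value + 1), and leaving out each library. The members, the lists, and the rule for named miRNAs (members, list members, and the 5 nearest profiles) were chosen with earlier results of these data known. Other miRNAs that come from several hairpins were found by name in the table. Of the 2588 names, 2281 matched the RefSeq sequence table; positions are from GENCODE on GRCh37, the build called hg19. Figures were drawn in Python 3.11.15 with matplotlib 3.10.9.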

Additional observations from a re-analysis of the deposited data

How the results depend on the processing

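The fall of miR-7-5p from 0 h to 24 h kept its direction under all 17 alternatives, between −1.81 and −1.44 on the log2 scale. It was −1.81 with total counts, −1.70 without miR-21-5p in them, and −1.81 with limma on the normalized values. For 96 h against 0 h it missed the minimum change of 1 with DESeq2's size factors (−0.92), DESeq2's test (−0.93), no expression filter (−0.95), and only the libraries compared (−0.96), and it ranged from −1.10 to −0.85 when a library was left out. Between 24 h and 96 h it stayed above 0 and below the minimum change, from 0.07 to 0.71. The sign of miR-7-1-3p turned for 96 h against 0 h (−0.031) and 96 h against 24 h (−0.050) with total counts, and for 24 h against 0 h without 24 h replicate 2, where leaving out a library gave −0.23 to 0.68; for 96 h against 24 h it gave 0.05 to 0.96. It was called under none of the alternatives, and it could not be fitted with a mean of at least 10 CPM, as it did not pass that filter. The strand ratio was called under none of the alternatives. When a library was left out it ranged from −2.16 to −1.34 for 24 h against 0 h, from −1.84 to −1.50 for 96 h against 0 h, and from −0.33 to 0.49 for 96 h against 24 h, where it turned negative without 24 h replicate 2 and without 96 h replicate 2. miR-7-2-3p gave no value. Causes were not tested.

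For 24 h against 0 h, 17 miRNAs called (6 higher, 11 lower) became 33 with total counts (5 higher, 28 lower), 26 without miR-21-5p in the totals (5 higher, 21 lower), 20 with DESeq2's size factors (10 higher, 10 lower), 36 without 0 h replicate 1, 5 without 24 h replicate 1, and 4 without 24 h replicate 2. For 96 h against 0 h, 127 (62 higher, 65 lower) became 215 with total counts (23 higher, 192 lower), 160 without miR-21-5p in the totals (39 higher, 121 lower), and 93 to 142 when a library was left out. Between 24 h and 96 h, 29 (18 higher, 11 lower) became 72 with total counts (14 higher, 58 lower), 46 without a filter, 17 with a mean of at least 10 CPM, 44 with only the libraries compared, 10 with limma on the normalized values, 46 without 0 h replicate 1, 44 without 0 h replicate 2, 9 without 24 h replicate 1, 11 without 96 h replicate 1, and 16 without 96 h replicate 2. Without miR-21-5p in the totals it was 33 (14 higher, 19 lower). With limma on the normalized values 96 h was represented by 1 library, assumed to vary like the others.

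Replicate numbers are shared between time points. Deviations of same-numbered libraries correlated at −0.30 (24 h and 0 h), 0.31 (96 h and 0 h), and −0.18 (96 h and 24 h). With 2 libraries at each time point, these values cannot decide whether the numbers pair the libraries. With the replicate block, miR-7-5p changed by −1.52, −1.01, and 0.51 in the 3 comparisons, the strand ratio by −1.75, −1.67, and 0.08, and 20, 124, and 41 miRNAs were called. The change of miR-7-5p for 96 h against 0 h stayed beyond the minimum change under the block.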
